A study of Homo sapiens with 6 samples.

Results

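The genes described here carry fatty acids into mitochondria as carnitine esters and break them down there. They were taken by gene name from 6 RNA sequencing libraries, and all 34 were found among the 60623 genes listed in each library. The cells were hepatocyte-like cells made from H9, an established human embryonic stem cell line, and are labelled as hepatoblasts of day 19. There were 3 libraries of cells exposed to HFPO-TA, a fluorinated ether acid known by its full name as hexafluoropropylene oxide trimer acid, and 3 libraries of cells given 0.1% DMSO. The unit of the HFPO-TA dose is garbled in the labels, so no dose is given, and DMSO is recorded for the DMSO group only. All libraries share 1 cell line and 1 differentiation protocol, and whether the replicates were separate cultures is not stated, so the p-values rest on a spread among libraries that may be no more than technical.

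As background, long-chain fatty acids cannot cross the inner mitochondrial membrane as coenzyme A esters. CPT1 enzymes on the outer membrane swap coenzyme A for carnitine, a carrier brings the ester across, and CPT2 restores the coenzyme A ester. The beta-oxidation spiral then removes acetyl units by dehydrogenation, hydration, a further dehydrogenation and thiolysis, and electrons of the first step pass through the electron transfer flavoprotein to the respiratory chain. In liver several of these genes, though not all, are known targets of PPARA, a nuclear receptor that binds fatty acids. The acetyl units released feed the making of ketone bodies. The related dehydrogenases of branched-chain amino acids use the same flavoprotein, and propionyl-CoA from odd-chain fatty acids and from valine and isoleucine is carboxylated and epimerised.

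HADH, the 3-hydroxyacyl-CoA dehydrogenase for medium and short chains, was the only one of the 34 genes called in the main fit, close to the threshold. It rose with HFPO-TA by 0.41 on the log2 scale (SE 0.06, limma with Benjamini-Hochberg adjustment, adjusted p = 0.0476). HADH was called in 6 of 15 alternative fits, with an adjusted p of up to 0.249, and in 4 of them 3 of CPT1A, ACADVL, ETFA and ETFB were called beside it. In the main fit the other 33 genes did not pass the test, among them CPT1A, which had the largest fold change of the 34 genes (log2 fold change 0.93, SE 0.16, adjusted p = 0.0595). Calls were made at an adjusted p under 0.05 over 15664 tested genes, and 0.492% of these were called, 0.185% higher and 0.306% lower. All 34 genes passed the filter on low values.

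The promoters of 3 loci are shown because these hold the called gene, the pair of genes that make up 1 enzyme complex, and the gene with the largest fold change. The sequences are from RefSeq (GRCh38.p14) and run 5′ to 3′ on the strand of the gene, over the 250 bases before its RefSeq start site. For HADH 2 start-site windows were listed, and the stretch of 1 is shown. Capitals mark GGGCGG, the GC box, and CCAAT, each searched on both strands. HADH is transcribed from the plus strand, and its stretch lies at chr4:107989639-107989888. HADHB is transcribed from the plus strand at chr2:26244689-26244938, and CPT1A from the minus strand at chr11:68844278-68844527. GENCODE, the annotation used for the gene spans below, starts these genes farther upstream. There HADH starts at 107989714 and CPT1A at 68844410, so part of each stretch lies inside the GENCODE span. HADHB starts there at 26243170, so its whole stretch lies inside the span.
HADH: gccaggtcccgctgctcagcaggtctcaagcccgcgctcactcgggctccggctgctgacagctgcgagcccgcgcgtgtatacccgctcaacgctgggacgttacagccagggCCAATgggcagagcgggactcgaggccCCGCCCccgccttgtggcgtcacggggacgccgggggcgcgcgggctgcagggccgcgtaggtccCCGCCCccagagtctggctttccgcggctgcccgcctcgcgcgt
HADHB: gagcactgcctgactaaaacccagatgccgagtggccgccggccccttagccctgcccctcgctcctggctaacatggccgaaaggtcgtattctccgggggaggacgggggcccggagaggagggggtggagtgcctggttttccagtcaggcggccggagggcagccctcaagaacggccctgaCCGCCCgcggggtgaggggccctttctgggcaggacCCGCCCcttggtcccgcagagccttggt
CPT1A: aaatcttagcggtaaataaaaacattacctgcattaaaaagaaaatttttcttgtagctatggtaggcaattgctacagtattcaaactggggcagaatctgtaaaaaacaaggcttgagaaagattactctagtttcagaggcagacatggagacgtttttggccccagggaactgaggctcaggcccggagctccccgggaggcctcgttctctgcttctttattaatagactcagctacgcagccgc

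The stretch before HADH had 74.4% G and C with 32 CpG pairs, 2 GC boxes and 1 CCAAT. The stretch before HADHB had 69.2% G and C with 17 CpG pairs and 2 GC boxes. That before CPT1A had 44.4% G and C with 7 CpG pairs and held neither motif. HADHA and HADHB encode the subunits of the trifunctional protein and are transcribed away from each other, with RefSeq start sites 307 bases apart. By these sites 194 of the 250 bases printed for HADHB are also upstream sequence of HADHA, on the other strand.

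RefSeq windows reaching from 250 bases before to 50 bases after a start site were listed for 29 of the 34 genes (39 windows). The response element of PPAR and RXR dimers, a direct repeat with a spacer of 1 base (DR1), searched in a strict and a looser form on both strands, was in 0 of the 39 windows, against 0.0228% and 0.310% of all 35116 windows. Every match of the strict form is also one of the loose form. The cyclic AMP response element TGACGTCA was in 1 window, that of ACAD9, against 1.85% of all windows. GGGCGG was in 31 of the 39 windows, against 45.0% of all windows, and CCAAT in 13, against 34.6%. The set of all windows was not limited to expressed genes, while all 34 genes passed the filter, so these shares are not a like comparison. A match is a description of these letters and not a binding site, and elements outside the windows were not searched.

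The 6 libraries each summed to between 995690 and 996186 TPM and had 15383 to 15905 genes at 1 TPM or more. TPM is a level per transcript length, so levels of different genes can be set side by side, but it holds no sequencing depth. All 8 hepatic markers were present, with a summed level of 94600 to 103000 TPM in HFPO-TA libraries and 105000 to 116000 TPM in DMSO libraries, most of it AFP. All HFPO-TA libraries lay below all DMSO libraries for 5 of the 8, ALB, AFP, TTR, APOB and HNF4A, as for 9.4% of all tested genes, and 0 of the 8 were called. For SERPINA1, APOA1 and TF the groups overlapped. SERPINA1 had a lower mean with HFPO-TA (4770 TPM, against 5540 TPM with DMSO). The means of APOA1 (21400 TPM with HFPO-TA, 20600 TPM with DMSO) and TF (101 TPM with HFPO-TA, 99.3 TPM with DMSO) were slightly higher with HFPO-TA. ALB, serum albumin, stood at 64.7 ± 9.84 TPM with HFPO-TA and 113 ± 14.3 TPM with DMSO (log2 fold change -0.80, adjusted p = 0.0522), and HNF4A, a hepatocyte transcription factor, at 38.4 ± 1.21 TPM with HFPO-TA and 49.3 ± 3.70 TPM with DMSO (adjusted p = 0.119). The part of these shifts in the levels of the 34 genes was not tested. The 6 stromal markers summed to 960 to 2100 TPM with HFPO-TA and 1180 to 1840 TPM with DMSO, highest in replicate 1 of both groups. The 5 pluripotency markers summed to 11.9 to 14.6 TPM with HFPO-TA and 14.7 to 15.9 TPM with DMSO. Most of it was LIN28A (5.98 TPM with HFPO-TA, 7.21 TPM with DMSO) and DNMT3B (5.75 TPM with HFPO-TA, 7.43 TPM with DMSO). POU5F1 (1.11 TPM with HFPO-TA, 0.57 TPM with DMSO), SOX2 and NANOG had higher means with HFPO-TA, with overlapping groups. NANOG had at most 0.14 TPM. The 4 endothelial markers summed to 40.0 to 58.5 TPM with HFPO-TA and 43.5 to 53.8 TPM with DMSO, most of it KDR. PECAM1, CDH5 and KDR overlapped between the groups, the means of PECAM1 and CDH5 being lower with HFPO-TA. EMCN, a low gene, was higher in all HFPO-TA libraries (2.47 TPM, against 1.04 TPM with DMSO, limma adjusted p = 0.165), as were 8.55% of all tested genes. The 4 biliary markers summed to 1210 to 1310 TPM with HFPO-TA and 1270 to 1300 TPM with DMSO. In such bulk samples fewer cells of a type and less RNA per cell cannot be told apart.

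Summed over the 34 genes, the level was 2074.2, 2180.4 and 2198.8 TPM in HFPO-TA libraries, against 1864.8, 1863.6 and 1817.8 TPM in DMSO libraries. The HFPO-TA libraries lay above the DMSO libraries, and the ratio of the means was 1.16. This sum is dominated by a few abundant genes, with ACADVL, ETFA, ETFB, ACAA2, HADHA, ECHS1 and HADH the most abundant of the 34 by the mean of all 6 libraries. At the other end CPT1C and MLYCD, with means below 3 TPM, were the least abundant. The log2 fold change was above 0 for 25 of the 34 genes, where 48.3% of all tested genes lay above 0. The median was 0.09 over the 34 genes and -0.01 over all tested genes.

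In 11 of the 34 genes all HFPO-TA libraries lay above all DMSO libraries, where this held for 8.55% of all tested genes. The 11 were CPT1A, CPT2, ACADVL, HADHA, HADHB, ECHS1, HADH, ACAA2, ETFA, ETFB and ETFDH. In 1 gene, DECR1, all HFPO-TA libraries lay below all DMSO libraries, where this held for 9.4% of all tested genes. At an unadjusted p under 0.05, 9 of the 34 genes stood higher and 1 stood lower, against 5.45% and 6.56% of all tested genes (12.0% in either direction). The 34 genes were put together with earlier results of these data known, so no test was made over the list.

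**Figure D1:**
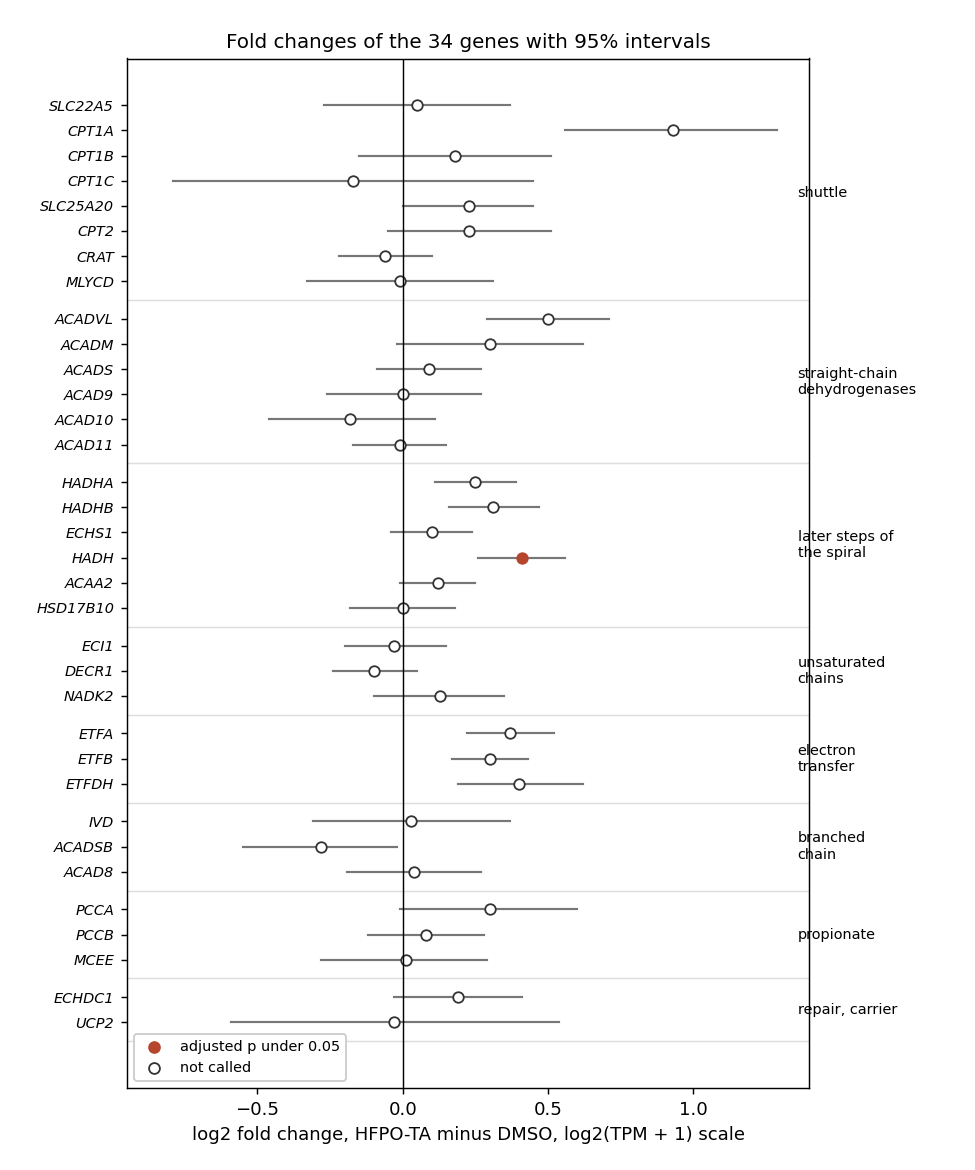
Log2 fold change of each of the 34 genes (x axis, difference of HFPO-TA and DMSO means of log2(TPM + 1), above 0 where HFPO-TA was higher) with its 95% interval from limma, in blocks by role down the page. The filled point is HADH at 0.41, the only gene called, while CPT1A lies farthest right at 0.93 with a wide interval and the 3 electron transfer genes lie between 0.30 and 0.40.

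The carnitine shuttle held the largest fold change of the 34 genes, but none of its 8 genes passed the test. CPT1A, the liver isoform of carnitine palmitoyltransferase 1 and the gate of long-chain fatty acid entry, had 10.91, 10.84 and 13.26 TPM in HFPO-TA libraries, against 7.06, 4.66 and 5.39 TPM in DMSO libraries. The groups were apart, and the ratio of the means was 2.05, with a 95% interval of the log2 fold change from 0.56 to 1.29. CPT1A was called in 4 of 15 alternative fits, with an adjusted p of up to 0.287, found without DMSO replicate 3. In the 4 fits that called it the adjusted p was 0.0354 with genes of at least 5 TPM in 3 or more libraries, 0.0394 with replicates 2 and 3 of both groups alone, 0.045 with a term parting replicate 1 from the others and 0.0488 without HFPO-TA replicate 1. In all tested genes the share called was 1.21%, 1.42%, 1.32% and 1.86% in these 4 settings. CPT1A lies on chromosome 11 from 68754620 to 68844410 in GENCODE 29 (GRCh38).

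SLC25A20, the carrier that exchanges acylcarnitine for carnitine across the inner membrane, was the most abundant shuttle gene next to CRAT. It had 59.18, 67.88 and 63.68 TPM with HFPO-TA and 48.88, 60.72 and 53.48 TPM with DMSO (log2 fold change 0.23, SE 0.10, adjusted p = 0.404). CPT2, which rebuilds the coenzyme A ester in the matrix, had 15.71, 15.65 and 15.34 TPM with HFPO-TA and 15.05, 11 and 13.63 TPM with DMSO (0.23, SE 0.12, adjusted p = 0.518). For SLC25A20 the groups overlapped in DMSO replicate 2, and for CPT2 the HFPO-TA libraries lay just above the highest DMSO library. The ratio of CPT1A to CPT2 was 0.694, 0.693 and 0.864 in HFPO-TA libraries, against 0.469, 0.424 and 0.395 in DMSO libraries. These groups did not overlap, with a log2 difference of 0.80 and a 2-sided exact permutation p of 0.1, the smallest that 3 libraries against 3 can give (0.4 after Benjamini-Hochberg adjustment over 6 ratios).

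CRAT, SLC22A5 and MLYCD had fold changes between -0.06 and 0.05. CRAT, which makes short-chain acylcarnitines, stood at 60.7 ± 2.72 TPM with HFPO-TA and 63.3 ± 2.63 TPM with DMSO (SD, n = 3 each; log2 fold change -0.06, 95% interval -0.22 to 0.10). SLC22A5, the carnitine importer of the plasma membrane, stood at 13.7 ± 2.33 TPM with HFPO-TA and 13.1 ± 1.37 TPM with DMSO (interval -0.27 to 0.37). MLYCD removes malonyl-CoA, the inhibitor of CPT1, and stood at 2.25 ± 0.126 TPM with HFPO-TA and 2.28 ± 0.0755 TPM with DMSO (interval -0.33 to 0.31). These intervals exclude a change as large as the one estimated for CPT1A and do not show that the levels were alike.

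All isoforms of CPT1 were detected. CPT1B, the isoform of muscle, had 9.85, 9.89 and 7.87 TPM with HFPO-TA and 8.51, 6.71 and 8.78 TPM with DMSO (log2 fold change 0.18, adjusted p = 0.69). It shares 66.36% of its exonic bases in GENCODE 29 with the read-through gene CHKB-CPT1B, which stood at 2.95 ± 0.522 TPM with HFPO-TA and 2.64 ± 0.728 TPM with DMSO, so the split between them is uncertain. CPT1C, the isoform of the brain, which resides in the endoplasmic reticulum, had 3.49, 1.70 and 2.01 TPM with HFPO-TA and 4.01, 1.78 and 2.73 TPM with DMSO (-0.17, adjusted p = 0.868), and replicate 1 was the highest library of each group. With HFPO-TA the mean of CPT1A lay above that of CPT1B (11.7 ± 1.38 TPM for CPT1A, 9.20 ± 1.15 TPM for CPT1B), and with DMSO below it (5.70 ± 1.23 TPM for CPT1A, 8.0 ± 1.13 TPM for CPT1B). The libraries of the isoforms were apart in the HFPO-TA group and overlapped in the DMSO group, and the difference between the isoforms was not tested. Of 9 markers of skeletal and cardiac muscle, 4 averaged 1 TPM or more, with MYOG listed at 0 throughout, and their sum was 17.21 to 23.99 TPM with HFPO-TA and 20.0 to 26.6 TPM with DMSO. Of 7 neural markers 2 averaged 1 TPM or more, with SOX1 and ELAVL4 listed at 0 throughout, and their sum was 31.8 to 52.3 TPM with HFPO-TA and 41.4 to 47.8 TPM with DMSO. The part of such cells in the CPT1B and CPT1C levels was not tested.

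**Figure D2:**
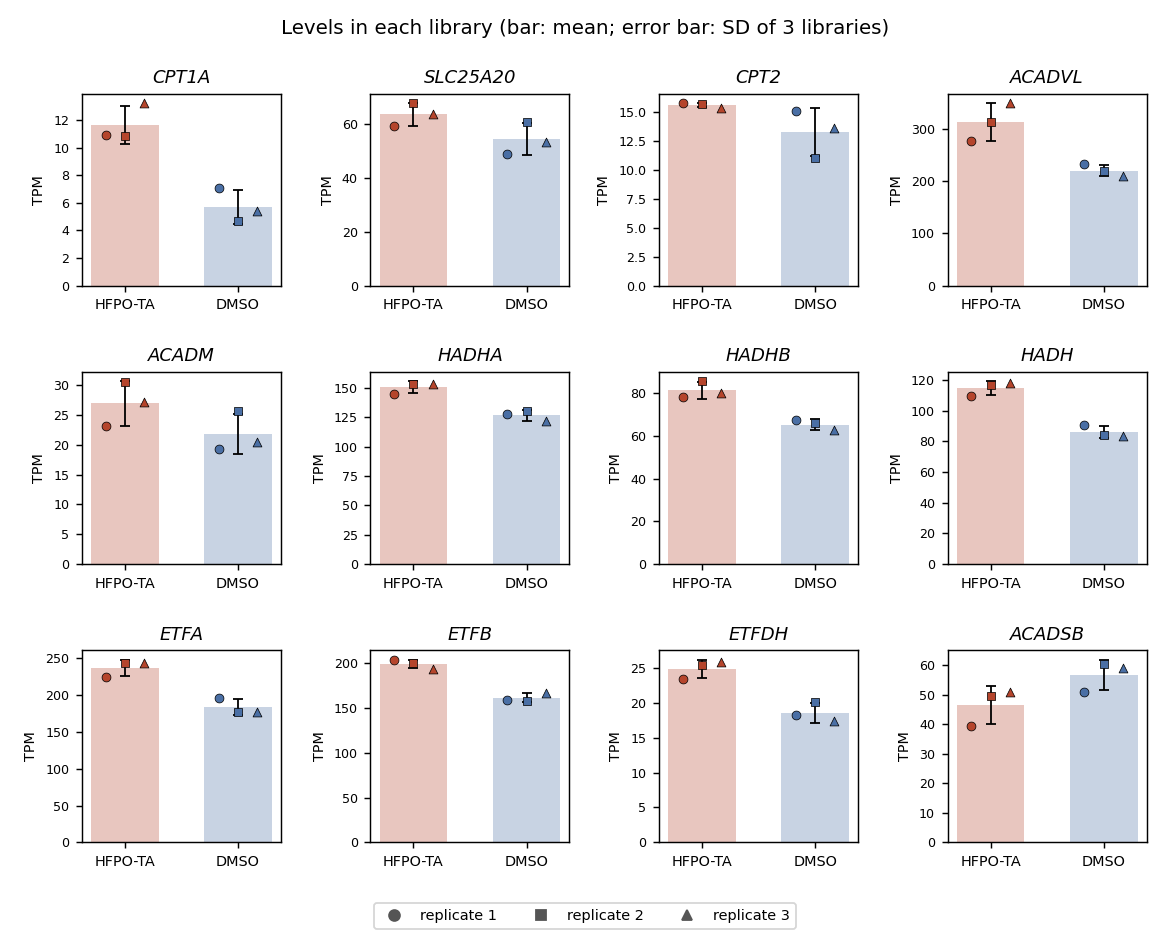
TPM (y axis, from 0) of 12 of the genes in each library, with HFPO-TA left of DMSO in each panel. Bars show the mean of 3 libraries, error bars the SD and symbols the replicate number. All 3 HFPO-TA points lie above the DMSO points for CPT1A, CPT2, ACADVL, HADHA, HADHB, HADH, ETFA, ETFB and ETFDH, while those of SLC25A20, ACADM and ACADSB overlap with DMSO.

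The dehydrogenases of straight chains carry out the first step of the spiral and differ in the chain length they prefer. None of the 6 passed the test. Among the 3 of them named for a chain length the estimate was highest for very long chains and lowest for short ones. ACADL, for long chains, is counted with the further genes and broke this order (log2 fold change -0.06, limma adjusted p = 0.947). It stood at 1.64 ± 0.576 TPM with HFPO-TA and 1.71 ± 0.316 TPM with DMSO. ACADVL, for very long chains, had 276.53, 314.53 and 350.56 TPM with HFPO-TA and 232.66, 219.17 and 210.22 TPM with DMSO. The groups were apart, with a ratio of means of 1.42 (log2 fold change 0.50, SE 0.09, adjusted p = 0.0678). ACADVL was called in 3 of 15 alternative fits, and the adjusted p reached 0.335 without DMSO replicate 3. The calls were made with genes of at least 5 TPM in 3 or more libraries (adjusted p = 0.0417), without HFPO-TA replicate 1 (adjusted p = 0.0184) and with replicates 2 and 3 alone (adjusted p = 0.0253). ACADVL lies on chromosome 17 from 7217125 to 7225273 and shares 1.75% of its exonic bases with DLG4 of the other strand, a gene at 8.76 ± 2.62 TPM with HFPO-TA and 9.16 ± 2.70 TPM with DMSO.

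ACADM, for medium chains, had 23.15, 30.59 and 27.15 TPM with HFPO-TA and 19.22, 25.68 and 20.50 TPM with DMSO (log2 fold change 0.30, 95% interval -0.02 to 0.62, adjusted p = 0.449). In both groups its replicate 1 was lowest and its replicate 2 highest, and the groups overlapped. ACADS, for short chains, had 37.84, 36.10 and 37.28 TPM with HFPO-TA and 34.22, 32.92 and 37.32 TPM with DMSO (0.09, interval -0.09 to 0.27). The intervals of ACADM and ACADVL overlap, and the ratio of ACADVL to ACADM stood at 11.7 ± 1.33 with HFPO-TA and 10.3 ± 1.79 with DMSO (SD, n = 3 each; exact permutation p = 0.4), so the estimates of these neighbours in chain length were not told apart.

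ACAD9, which also serves in the assembly of respiratory complex I, stood at 11.3 ± 0.529 TPM with HFPO-TA and 11.3 ± 1.28 TPM with DMSO (interval -0.26 to 0.27). ACAD10, a less studied relative, stood at 15.4 ± 2.05 TPM with HFPO-TA and 17.4 ± 1.69 TPM with DMSO (log2 fold change -0.18, interval -0.46 to 0.11). ACAD11, a further relative, stood at 57.8 ± 0.727 TPM with HFPO-TA and 58.4 ± 3.40 TPM with DMSO (-0.01, interval -0.17 to 0.15). Part of the exonic bases of ACAD11 is shared with other annotated genes, so its level is uncertain.

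After the first step, long chains are handled by the trifunctional protein and shorter ones by separate enzymes. Of these 6 genes 1 was called higher and 0 lower, and in 5 of the 6 the HFPO-TA libraries lay above all DMSO libraries, against 0.185% of all tested genes called higher and 8.55% with HFPO-TA above. HADH had 109.25, 116.52 and 117.92 TPM with HFPO-TA, against 90.41, 84.00 and 83.54 TPM with DMSO. Each HFPO-TA library was higher than every DMSO library, by 33.2% between the means. The call of HADH was lost without DMSO replicates 1, 2 and 3 in turn (adjusted p = 0.0755, 0.177 and 0.249) and without HFPO-TA replicates 2 and 3 (0.197 and 0.202). It was also lost with no filter (0.152), without the trended and robust variance (0.164) and with median-of-ratios scaling (0.0813). A fit with the replicate number as a block, described at the end, did not call HADH either. The fold change of HADH kept its sign and ran from 0.39 to 0.48. HADH lies on chromosome 4 from 107989714 to 108035175, and GENCODE 29 lists no gene that overlaps it.

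HADHA, the subunit with hydratase and long-chain dehydrogenase activity, had 144.53, 153.85 and 153.44 TPM with HFPO-TA and 127.87, 130.27 and 121.64 TPM with DMSO (log2 fold change 0.25, SE 0.06, adjusted p = 0.139). HADHB, the thiolase subunit, had 78.07, 85.63 and 80.31 TPM with HFPO-TA and 67.34, 65.93 and 62.62 TPM with DMSO (0.31, SE 0.07, adjusted p = 0.109). For both subunits the groups were apart, and neither passed the test. The ratio of HADHA to HADHB was 1.85 ± 0.057 with HFPO-TA and 1.94 ± 0.0386 with DMSO (SD, n = 3 each; log2 difference -0.07, exact permutation p = 0.2).

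The remaining enzymes of these steps differed less. ACAA2, the thiolase for medium chains, had 167.45, 162.68 and 160.38 TPM with HFPO-TA and 144.36, 155.39 and 151.08 TPM with DMSO (log2 fold change 0.12, adjusted p = 0.45). ECHS1, the short-chain hydratase, had 131.63, 146.46 and 143.45 TPM with HFPO-TA and 131.31, 131.30 and 130.75 TPM with DMSO (0.10, adjusted p = 0.602). For ECHS1 the groups were apart only narrowly, with HFPO-TA replicate 1 next to the highest DMSO library. HSD17B10, which acts in isoleucine breakdown and in the mitochondrial RNase P, stood at 33.1 ± 0.44 TPM with HFPO-TA and 33.1 ± 2.10 TPM with DMSO (interval -0.18 to 0.18).

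Of the electron transfer genes none was called, and their fold changes lay between 0.30 and 0.40. ETFA, the alpha subunit of the flavoprotein, had 224.71, 243.28 and 244.01 TPM with HFPO-TA and 195.73, 177.47 and 177.51 TPM with DMSO (log2 fold change 0.37, SE 0.07, adjusted p = 0.0665). ETFB, the beta subunit, had 203.83, 200.10 and 194.10 TPM with HFPO-TA and 159.33, 157.97 and 167.41 TPM with DMSO (0.30, SE 0.06, adjusted p = 0.0715). ETFDH, the membrane oxidoreductase that hands the electrons to ubiquinone, had 23.37, 25.35 and 25.88 TPM with HFPO-TA and 18.20, 20.14 and 17.32 TPM with DMSO (0.40, SE 0.09, adjusted p = 0.123). In all 3 genes every HFPO-TA library was above every DMSO library, as in 8.55% of all tested genes. Their summed level was 451.9, 468.7 and 464.0 TPM with HFPO-TA and 373.3, 355.6 and 362.2 TPM with DMSO.

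ETFA was called in 4 of 15 alternative fits and ETFB in 1, with adjusted p-values of up to 0.326 and 0.279. The calls of ETFA were made with genes of at least 5 TPM in 3 or more libraries (adjusted p = 0.0425), with the term parting replicate 1 (0.0485), with replicates 2 and 3 alone (0.0243) and without HFPO-TA replicate 1 (0.0334), and that of ETFB with that term (0.045). ETFDH stood far below its partners, at 0.105 ± 0.00114 times the level of ETFA with HFPO-TA and 0.101 ± 0.0108 with DMSO (SD, n = 3 each; exact permutation p = 0.7). The ratio of ETFA to ETFB was 1.19 ± 0.0801 with HFPO-TA and 1.14 ± 0.0849 with DMSO (exact permutation p = 0.5). ETFDH shares 10.91% of its exonic bases with PPID on the opposite strand, whose HFPO-TA libraries also lay above the DMSO libraries (62.0 ± 0.644 TPM with HFPO-TA and 56.8 ± 5.01 TPM with DMSO), and whether counting used strand is not given in the sources used here.

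None of the 3 enzymes for unsaturated chains was called. DECR1, the 2,4-dienoyl-CoA reductase, had 63.35, 59.07 and 60.50 TPM with HFPO-TA and 64.71, 66.99 and 63.98 TPM with DMSO (log2 fold change -0.10, SE 0.06, adjusted p = 0.626). All its HFPO-TA libraries lay below the DMSO libraries, by 6.52% between the means, and it did not pass the test. ECI1, an enoyl-CoA isomerase, stood at 48.3 ± 3.40 TPM with HFPO-TA and 49.2 ± 0.384 TPM with DMSO (interval -0.20 to 0.15). NADK2, the mitochondrial NAD kinase that supports DECR1 with NADPH, stood at 17.9 ± 1.43 TPM with HFPO-TA and 16.3 ± 0.728 TPM with DMSO (0.13, interval -0.10 to 0.35). The summed level of these 3 genes was 125.0, 124.8 and 131.8 TPM with HFPO-TA and 130.9, 132.7 and 128.6 TPM with DMSO, and the groups overlapped. ECI2 and ECH1, also enzymes for unsaturated chains, are counted with the further genes and not in this sum. Both were more abundant than DECR1, and their estimates lay above 0 with overlapping groups. ECI2 stood at 160 ± 7.74 TPM with HFPO-TA and 145 ± 15.4 TPM with DMSO (0.14, limma adjusted p = 0.592). ECH1 stood at 236 ± 16.9 TPM with HFPO-TA and 223 ± 20.8 TPM with DMSO (0.08, adjusted p = 0.765).

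**Figure D3:**
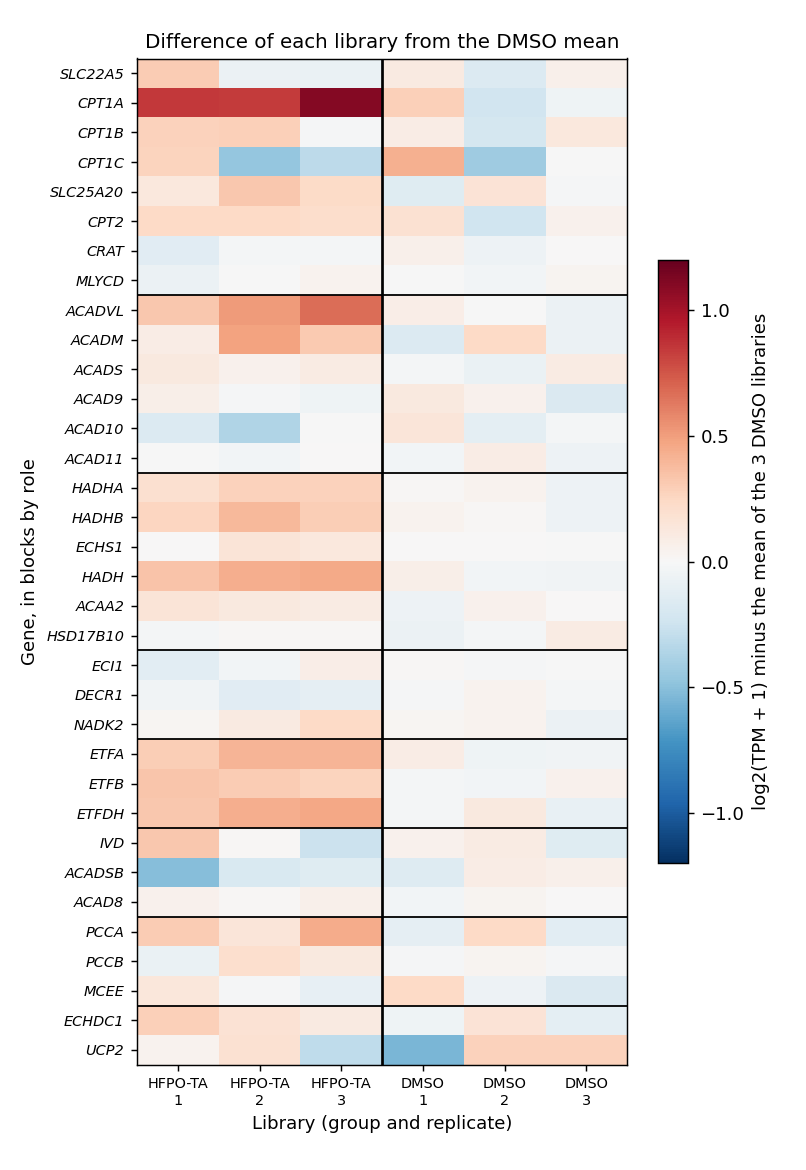
Difference of each library (columns, HFPO-TA left of DMSO) from the mean of the 3 DMSO libraries for the 34 genes (rows, in blocks by role), in log2(TPM + 1). The HFPO-TA columns are red in all 3 libraries for CPT1A, ACADVL, HADHA, HADHB, HADH and the 3 electron transfer genes, while ACADSB is blue in all 3. DECR1 and CRAT also lie below 0 in all 3, but in pale shades that are near white in places.

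None of the 3 dehydrogenases of branched-chain amino acids was called. ACADSB, for short branched chains from isoleucine, had 39.28, 49.61 and 50.91 TPM with HFPO-TA and 50.83, 60.31 and 59.08 TPM with DMSO. It had the lowest fold change of the 34 genes (-0.28, SE 0.12, adjusted p = 0.385), the groups overlapped, and replicate 1 was the lowest library of each group. IVD, for isovaleryl-CoA from leucine, had 35.46, 28.48 and 23.32 TPM with HFPO-TA and 29.15, 30.08 and 25.33 TPM with DMSO (0.03, interval -0.31 to 0.37). ACAD8, for isobutyryl-CoA from valine, stood at 8.89 ± 0.178 TPM with HFPO-TA and 8.61 ± 0.207 TPM with DMSO (0.04, interval -0.19 to 0.27).

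In the propionate branch 0 of 3 genes were called. PCCA, the biotin-bearing subunit of propionyl-CoA carboxylase, had 19.08, 16.97 and 21.16 TPM with HFPO-TA and 14.12, 18.17 and 13.86 TPM with DMSO (log2 fold change 0.30, interval -0.01 to 0.60, adjusted p = 0.427). PCCB, its partner subunit, had 51.07, 62.39 and 58.82 TPM with HFPO-TA and 53.30, 55.24 and 53.51 TPM with DMSO (0.08, interval -0.12 to 0.28). The groups overlapped for both, and the ratio of PCCA to PCCB stood at 0.335 ± 0.0551 with HFPO-TA and 0.284 ± 0.0388 with DMSO (SD, n = 3 each; exact permutation p = 0.2). PCCB shares 22.09% of its exonic bases with STAG1 on the opposite strand. MCEE, the methylmalonyl-CoA epimerase, stood at 27.2 ± 2.27 TPM with HFPO-TA and 27.2 ± 4.27 TPM with DMSO (interval -0.28 to 0.29).

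ECHDC1 removes ethylmalonyl-CoA, a side product of fatty acid synthesis, and stood at 40.1 ± 2.53 TPM with HFPO-TA and 35.1 ± 3.72 TPM with DMSO (log2 fold change 0.19, adjusted p = 0.496). UCP2, a carrier of the inner membrane, had 9.41, 10.46 and 7.18 TPM with HFPO-TA and 5.90, 11.20 and 11.22 TPM with DMSO (-0.03, interval -0.59 to 0.54). DMSO replicate 1 was the lowest of the 6 libraries, and the interval of UCP2 was among the widest of the 34 genes.

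By role, the median log2 fold change was 0.37 for electron transfer, 0.19 for the trifunctional protein and later steps, 0.12 for the shuttle, 0.08 for the propionate branch, 0.05 for the straight-chain dehydrogenases, 0.03 for the branched-chain dehydrogenases and -0.03 for the enzymes of unsaturated chains. ECHDC1 and UCP2 together gave 0.08. The groups hold 2 to 8 genes each, without further genes such as ECI2 and ECH1, and these medians were not tested against each other. Summed levels gave another order, with a ratio of means of 1.27 for electron transfer and also for the straight-chain dehydrogenases. The latter summed to 422.9, 462.7 and 501.6 TPM with HFPO-TA and 374.7, 367.7 and 351.0 TPM with DMSO, most of it ACADVL. These sums were not tested either.

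Of 53 further genes of these pathways in the files, 49 were tested and 0 were called by limma, while an unadjusted p under 0.05 was found for 6 higher genes and 1 lower gene. Of all tested genes 0.492% were called, and 5.45% stood higher and 6.56% lower at that unadjusted p. The 11 tested genes of other beta-oxidation and carnitine steps had a median of 0.02, and the smallest p was that of CROT, which makes carnitine esters in peroxisomes, at 5.85 ± 0.816 TPM with HFPO-TA and 7.40 ± 1.13 TPM with DMSO (adjusted p = 0.493). The 4 tested genes of riboflavin and FAD supply, the cofactor of the dehydrogenases, had a median of -0.01, with SLC25A32, the mitochondrial folate and FAD carrier, at 9.69 ± 0.404 TPM with HFPO-TA and 8.85 ± 0.118 TPM with DMSO (adjusted p = 0.711). Neither list had a gene with an unadjusted p under 0.05.

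The 14 genes of branched-chain amino acid breakdown had a median of 0.18, with 11 above 0, against 48.3% of all tested genes. ALDH6A1, the methylmalonate semialdehyde dehydrogenase of valine breakdown, had the smallest p of the list, at 72.4 ± 1.24 TPM with HFPO-TA and 60.2 ± 6.04 TPM with DMSO (adjusted p = 0.245). Of the methylmalonyl-CoA branch 4 genes were tested, with a median of 0.10, and MMUT, the mutase that follows MCEE, stood at 26.2 ± 2.53 TPM with HFPO-TA and 21.1 ± 1.60 TPM with DMSO (adjusted p = 0.294). The 16 genes of the tricarboxylic acid cycle had a median of 0.11 with 14 above 0, against the same 48.3%, and MDH2, the mitochondrial malate dehydrogenase, stood at 146 ± 1.93 TPM with HFPO-TA and 127 ± 10.2 TPM with DMSO (adjusted p = 0.298).

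**Figure D4:**
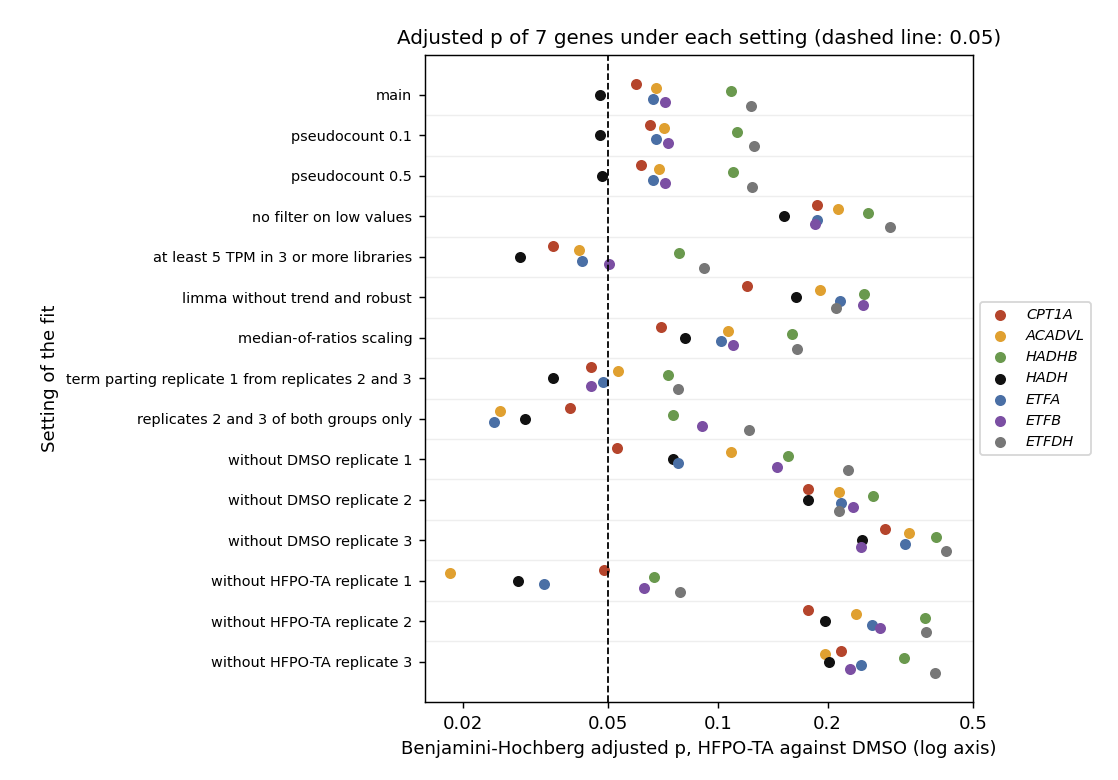
Benjamini-Hochberg adjusted p (x axis, log scale) of 7 genes in the main fit and in 14 other settings (y axis), with the threshold of 0.05 as a dashed line. The fit with the replicate number as a block is not drawn. HADH lies left of the line in the main fit at 0.0476, and points of HADH, CPT1A, ACADVL and ETFA lie left of it without HFPO-TA replicate 1. Without HFPO-TA replicate 2 or 3 or DMSO replicate 1, 2 or 3 all 7 genes lie right of it. The nearest of these is CPT1A at 0.0529 without DMSO replicate 1.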

How the data were processed

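The deposited files give 1 value per gene and library. Their header says FPKM, but the columns sum to 995690 to 996186, so the values deposited by the authors were read as TPM. Per the submitters' processing notes, HISAT, Bowtie2 and RSEM were used with GRCh38.p13. For the annotation and the strand setting, the sources used here name nothing, and the number of reads behind a value is unknown.

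Groups and replicate numbers come from the sample titles. log2(TPM + 1) was fitted with limma 3.58.1 (R 4.3.3, trended and robust variance, treatment as the only term) over the 15664 genes that reached 1 TPM in 3 or more libraries, and p-values were adjusted over all of them. Fold changes are HFPO-TA minus DMSO and understate the change of low genes. Ratios of TPM were compared by 2-sided exact permutation in scipy 1.17.1, which cannot give a p under 0.1 with 3 libraries against 3. GENCODE 29 held 58516 of the 60623 gene identifiers and all 34 genes described.

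The genes and lists were chosen with earlier results of these data known. All 34 genes are named, and of each further list the gene with the smallest p, with ACADL, ECI2 and ECH1 beside them. In 10 simulated runs of this comparison over 15664 genes with 200 changed, 28.5% of changes of 0.5, 77.5% of changes of 1 and 96.1% of changes of 2 on the log2 scale were recovered. Of the genes called in these runs 3.72% were false. Changes were placed only in genes averaging above about 5 TPM, with independent normal noise. The shares therefore do not cover low genes such as CPT1C and MLYCD, or shifts shared by libraries. Alternatives covered pseudocount, filter, variance estimate, scaling, replicate terms and each library left out. The promoter windows are a description, and the GC box and CCAAT were added to the search after the data were seen.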

Additional observations from a re-analysis of the deposited data

How the results depend on the processing

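The number of called genes among the 34 moved with most settings. It was 1 in the main fit and with pseudocounts of 0.1 and 0.5, 0 without a filter, 4 with a minimum of 5 TPM in 3 libraries, 0 without the trended and robust variance, 0 with median-of-ratios scaling, 4 with a term parting replicate 1 from the others and 4 with replicates 2 and 3 alone, and ran from 0 to 4 with 1 library left out. All called genes were higher with HFPO-TA. The share of all tested genes called in these fits was 0.498% and 0.479% with the pseudocounts, 0.0314% without a filter, 0.0702% without the trended and robust variance, 0.204% with median-of-ratios scaling, 1.21% with the stricter filter, 1.32% with the term, 1.42% with replicates 2 and 3 alone and 1.86% without HFPO-TA replicate 1, the only omission with any of the 34 called. Without 1 of the other 5 libraries it was 0.0383% to 0.3%. Some settings test fewer genes or libraries by construction; the cause was otherwise not tested. The median over the 34 genes ran from 0.098 to 0.12 with 1 library left out (main 0.094), and 0 of the further pathway genes were called in any setting.

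With the replicate number as a block 0 of the 34 genes were called (adjusted p 0.106 for HADH, lowest 0.0962 for CPT1A), against 0.192% of all genes tested. Deviations of same-numbered libraries correlated at 0.184, 0.123 and 0.0282, against -0.158 to 0.0679 for differently numbered ones. The labels state no block, and the numbers were not taken to pair the libraries, but whether they do was not settled. For the ratios, exact sign flips over the 3 pairs gave p-values from 0.25 to 0.75 and left the differences as they were.

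No called gene turned its sign. With replicates 2 and 3 alone SLC22A5 was at -0.025, CRAT at 0.005, MLYCD at 0.016, HSD17B10 at -0.023, ECI1 at 0.029 and IVD at -0.095. With 1 library left out the log2 fold change ran from -0.078 to 0.116 for SLC22A5, -0.388 to 0.043 for CPT1C, -0.038 to 0.018 for MLYCD, -0.083 to 0.064 for ACAD9, -0.042 to 0.034 for ACAD11, -0.034 to 0.051 for HSD17B10, -0.077 to 0.023 for ECI1, -0.121 to 0.171 for IVD, -0.082 to 0.125 for MCEE and -0.3 to 0.114 for UCP2, and the log2 difference of ETFDH to ETFA from -0.007 to 0.137.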
